A study of Mus musculus with 2 samples.

Results

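The genes described are Gp1ba, Gp1bb, Gp5, Gp6, Gp9, Itga2b, Itgb3, Pf4 and Vwf, which encode receptors and secreted proteins of platelets and of megakaryocytes, the marrow cells that shed platelets. They were taken as a list of symbols, with no threshold on a measured value, and all 9 were found by gene identifier among the 43346 genes in the tables. The data were polyA RNA-seq profiles of G1E-ER4, an immortalized mouse erythroid line recorded as male and postnatal. They came from 2 libraries of 1 group treated with 17beta-estradiol at 10 nM for 7 hours. G1E-ER4 lacks functional endogenous GATA1 and carries a fusion of GATA1 with the hormone-binding part of the estrogen receptor, which estradiol makes active. The labels number the libraries as biological replicates 1 and 2 but tie both to 1 sample record, and their spread may be technical. No change with estradiol can be read from these data, because untreated cells were not analysed here.

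Platelets attach to injured vessels through the GPIb-IX-V complex, whose GPIb alpha chain binds von Willebrand factor and which is built from the products of Gp1ba, Gp1bb, Gp9 and Gp5. GPVI, encoded by Gp6, binds collagen, and integrin alpha IIb beta 3, encoded by Itga2b and Itgb3, binds fibrinogen so that platelets aggregate. Pf4 encodes a chemokine of the alpha granules, where von Willebrand factor, encoded by Vwf, is also stored. Erythroid cells and megakaryocytes arise from a common progenitor, GATA1 acts in both, and many promoters of megakaryocyte genes hold sites for GATA and ETS factors.

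The libraries held 59610969 expected counts in replicate 1 and 44689405 in replicate 2. Of 12 erythroid marker genes, 11 were detected, where detected means a TPM, a transcript level corrected for length and library size, of at least 1 in both libraries. Among all protein-coding genes 38.3% were detected by that rule. Hbb-bs and Hba-a1 led that list, at 9213 ± 3616 and 4967 ± 2271 TPM (SD, n = 2). Of 10 endothelial markers 1 was detected, Egfl7 at 316 ± 2.36 TPM, the next highest was Plvap at 0.66 ± 0.0141 TPM, and Cdh5, Pecam1, Tek, Tie1 and Emcn had 0 counts in both libraries. The summed TPM of the endothelial list was 316 in replicate 1 and 319 in replicate 2.

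The proximal promoters of the complex subunits are shown first, as sequence only. Whether their motifs bear on RNA levels was not tested. Each window runs from 250 bases before to 50 bases after the RefSeq start on GRCm38.p6, 5′ to 3′ on the gene's strand. Capitals mark GATA motifs (spelled AGATAA or else AGATAG, and with the other first letter TGATAA or else TGATAG) and ETS motifs (spelled CGGAAG or else AGGAAG) on either strand. The windows are chr11:70638872-70639171 (plus strand) for Gp1ba, chr16:30310732-30311031 (minus strand) for Gp5, chr6:87777820-87778119 (plus strand) for Gp9 and chr16:18622354-18622653 (minus strand) for Gp1bb.
Gp1ba: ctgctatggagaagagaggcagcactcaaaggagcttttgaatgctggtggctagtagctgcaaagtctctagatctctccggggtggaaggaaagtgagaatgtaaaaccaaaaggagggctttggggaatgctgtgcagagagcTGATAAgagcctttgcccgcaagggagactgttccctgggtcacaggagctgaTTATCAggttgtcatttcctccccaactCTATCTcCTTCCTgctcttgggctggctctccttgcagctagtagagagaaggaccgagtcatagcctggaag
Gp5: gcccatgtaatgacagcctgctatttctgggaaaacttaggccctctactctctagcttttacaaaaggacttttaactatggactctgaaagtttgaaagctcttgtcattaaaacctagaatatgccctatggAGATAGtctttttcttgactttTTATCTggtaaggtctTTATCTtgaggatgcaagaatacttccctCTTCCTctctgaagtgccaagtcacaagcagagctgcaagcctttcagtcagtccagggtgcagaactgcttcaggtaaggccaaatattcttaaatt
Gp9: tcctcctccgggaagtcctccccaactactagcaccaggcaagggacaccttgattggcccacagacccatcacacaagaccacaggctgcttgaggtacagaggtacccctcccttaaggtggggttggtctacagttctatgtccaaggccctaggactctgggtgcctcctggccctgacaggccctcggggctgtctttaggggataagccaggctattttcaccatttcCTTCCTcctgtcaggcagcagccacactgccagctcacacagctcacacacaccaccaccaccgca
Gp1bb: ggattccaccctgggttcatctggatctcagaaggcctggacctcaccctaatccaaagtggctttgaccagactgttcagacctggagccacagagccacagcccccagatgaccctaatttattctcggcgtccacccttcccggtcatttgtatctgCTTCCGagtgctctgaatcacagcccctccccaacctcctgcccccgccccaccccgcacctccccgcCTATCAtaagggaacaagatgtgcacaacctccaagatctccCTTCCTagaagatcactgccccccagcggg

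The cells held RNA of part of the platelet receptor set. Of the 9 genes, 3 were detected, Gp1ba, Gp5 and Itga2b. A further 3, Gp9, Itgb3 and Pf4, had counts but stayed below a TPM of 1. The remaining 3, Gp1bb, Gp6 and Vwf, had 0 counts in both libraries. Among 21474 protein-coding genes 38.3% were detected and 39.5% had 0 counts in both libraries, so the share of the 9 genes in each class was near that background. Whether few cells held much of an RNA or all cells held little cannot be told apart in bulk samples.

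**Figure D1:**
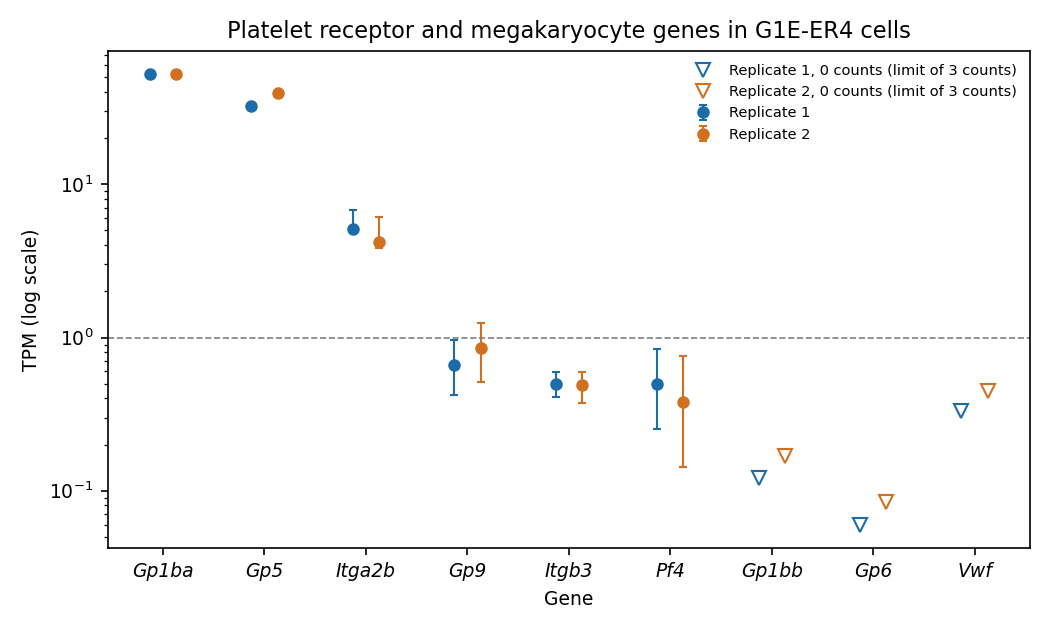
TPM of the 9 genes on a log scale in replicate 1 and replicate 2, with the authors' interval as bars; open triangles stand for 0 counts and are drawn at the level of 3 counts on the shortest listed transcript, and the dashed line is a TPM of 1. Gp1ba, Gp5 and Itga2b lie above the line in both libraries, while Gp9, Itgb3 and Pf4 lie between 0.38 and 0.85 TPM.

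Gp1ba (ENSMUSG00000050675.7), which encodes the chain that binds von Willebrand factor, had the highest level of the 9. It stood at 52.56 TPM in replicate 1 and 52.67 TPM in replicate 2, from 6224 and 4760 counts (95% exact Poisson intervals 6070 to 6381 and 4626 to 4897). The mean of 52.6 ± 0.0778 TPM (SD, n = 2) ranked 2404 of 21474 protein-coding genes. Gp5 (ENSMUSG00000047953.6, chr16:30307685-30310779, minus strand, mm10), whose product joins the complex, stood at 32.56 TPM in replicate 1 and 39.57 TPM in replicate 2, from 3366 and 2869 counts. Its mean of 36.1 ± 4.96 TPM ranked 3063. Gp1ba was above Gp5 in both libraries, and their ranges did not overlap.

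The other subunits of that complex were far lower. Gp9 lies at chr6:87778072-87779768 (ENSMUSG00000030054.3, plus strand). Gp9, whose product is known from humans to be needed for the complex to reach the cell surface, stood at 0.66 TPM in replicate 1 and 0.85 TPM in replicate 2, from 22 and 20 counts (95% exact Poisson intervals 13.8 to 33.3 and 12.2 to 30.9). The authors' bounds on Gp9 TPM were 0.420 and 0.964 for replicate 1, with 0.511 and 1.25 for replicate 2, so a level above 1 TPM in replicate 2 lies inside that interval. Gp1bb, the chain that is linked to GPIb alpha by disulfide bonds, had 0 counts in each library, which allows a level of up to 0.121 TPM in replicate 1 and 0.170 TPM in replicate 2 if 3 counts on its shortest listed transcript are taken as the limit. The authors' upper bounds on Gp1bb were 0.132 TPM in replicate 1 and 0.184 TPM in replicate 2. Counting intervals and limits cover counting error only.

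Within the complex, Gp1ba TPM over Gp5 TPM was 1.61 in replicate 1 and 1.33 in replicate 2, averaging 1.47 ± 0.200 (SD, n = 2). Gp1ba over Gp9 was 79.6 in replicate 1 and 62.0 in replicate 2, averaging 70.8 ± 12.5, and Gp5 over Gp9 was 47.9 ± 1.97. Gp1ba was at least 434-fold higher than Gp1bb in replicate 1 and at least 311-fold higher in replicate 2, with 3 counts per library on the shortest Gp1bb transcript as the limit, which lies slightly under the authors' upper bound. The gap between the abundant and the scarce subunits exceeded the spread between the libraries.

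Gp1bb overlaps other genes, and its listed transcript models differ from those of the later annotation. On mm10 Gp1bb (ENSMUSG00000050761.3) lies on chromosome 16 (18620317 to 18622403, minus strand), where its span crosses the same-strand gene Sept5 (18620502 to 18629954), which also had 0 counts in both libraries. The overlapping gene Gm49601 is not in the tables. The tables list Gp1bb-201 at 645 bases and Gp1bb-202 at 1847 bases, whereas the later annotation gives Gp1bb-201 as 2085 bases. Its later model is 62.0% GC, above 98.0% of protein-coding genes, against 59.3% for Gp5-201, 58.3% for Gp9-201 and 51.6% for Gp1ba-201, where the median over protein-coding genes is 49.0%. The GC content of Gp5-201 is above that of 94.0% of genes, and the part of GC in the 0 counts of Gp1bb was not tested.

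Itga2b and Itgb3 encode the chains of the fibrinogen receptor, and Itga2b is also expressed in early blood progenitors of the mouse. Itga2b stood at 5.12 TPM in replicate 1 and 4.21 TPM in replicate 2, from 447 and 266 counts. Itgb3 stood at 0.5 TPM in replicate 1 and 0.49 TPM in replicate 2, from 128 and 81 counts (95% exact Poisson intervals 107 to 152 and 64.3 to 101). Itga2b lies at chr11:102453297-102470122 (ENSMUSG00000034664.9, minus strand) and Itgb3 at chr11:104608000-104670476 (ENSMUSG00000020689.4, plus strand). The alpha chain RNA was above the beta chain RNA in both libraries, with a TPM ratio of 10.2 in replicate 1 and 8.59 in replicate 2. Counted over the full-length coding transcripts Itga2b-201 and Itgb3-201 alone, the ratio was 7.21 in replicate 1 and 9.76 in replicate 2. The gene Itgav, whose product is the other alpha chain that pairs with beta 3, stood at 19.8 TPM in replicate 1 and 46.0 TPM in replicate 2.

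Gp6, Pf4 and Vwf were at the low end. Pf4 (ENSMUSG00000029373.6) lies at chr5:90772435-90773383 on the plus strand, Gp6 (ENSMUSG00000078810.3) at chr7:4363965-4397744 on the minus strand and Vwf (ENSMUSG00000001930.13) at chr6:125546774-125686679 on the plus strand. Pf4 stood at 0.5 TPM in replicate 1 and 0.38 TPM in replicate 2, from 11 and 6 counts (95% exact Poisson intervals 5.49 to 19.7 and 2.20 to 13.1). Its neighbour Ppbp, 2372 bases away on chromosome 5 and also a platelet chemokine gene, had 0 counts in both libraries. Gp6 had 0 counts, a limit of 0.0594 TPM in replicate 1 and 0.0842 TPM in replicate 2. Fcer1g, which encodes the signalling partner of GPVI, also had 0 counts in both libraries.

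Vwf, which is also expressed by endothelial cells, had 0 counts over all 12 of its listed transcripts, and 3 counts on the shortest of them, Vwf-205, would be 0.332 TPM in replicate 1 and 0.447 TPM in replicate 2. The authors' bounds on Vwf TPM were 0.0733 and 0.550 for replicate 1, with 0.101 and 0.751 for replicate 2. For the coding transcript Vwf-203 alone, the upper bounds were 0.0066 TPM in replicate 1 and 0.0095 TPM in replicate 2. The upper bounds of the Vwf gene exceed the Pf4 TPM but not the authors' upper bounds on Pf4, 0.846 and 0.763 TPM in replicates 1 and 2. The authors' posterior mean TPM for Vwf was nevertheless 0.28 in replicate 1 and 0.38 in replicate 2, above 0 without any assigned fragment. For Gp1bb and Gp6, with fewer listed transcripts, that estimate was 0.05 and 0.02 in replicate 1 and 0.07 and 0.03 in replicate 2. The levels given for the genes are therefore the TPM tied to assigned counts, not the posterior means.

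In order of mean TPM the genes were Gp1ba, Gp5, Itga2b, Gp9, Itgb3 and Pf4, followed by Gp1bb, Gp6 and Vwf at 0. Itgb3 and Pf4, with means of 0.495 ± 0.00707 and 0.44 ± 0.0849 TPM, did not differ beyond their spread. Every other neighbouring pair with counts was separated by more than the larger SD, and Gp9 at 0.755 ± 0.134 TPM lay 0.26 TPM above Itgb3. The authors' intervals of Gp9 and Itgb3 overlap, however, at 0.420 to 0.964 and 0.408 to 0.596 TPM in replicate 1. In replicate 2 they were 0.511 to 1.25 TPM for Gp9 and 0.374 to 0.595 TPM for Itgb3, so their order is uncertain. The median over the 9 genes, the level of Itgb3, was 0.495 TPM, against 0.03 TPM over all protein-coding genes. Of all protein-coding genes 39.5% had 0 counts in both libraries, and the share detected was near that of the 9 genes. Gp1ba was closest in level to Rhno1, Slc20a1 and Tomm40l, at Euclidean distances of 0.0072, 0.0185 and 0.0200 in log2(TPM + 1). With 2 libraries, this likeness describes the level and not a pattern.

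**Figure D2:**
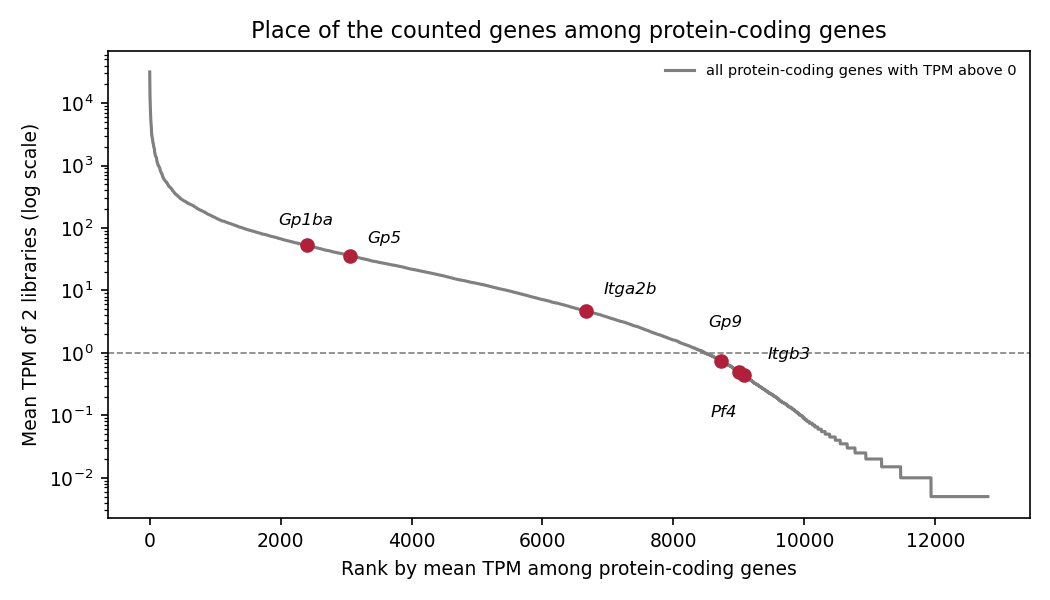
Mean TPM of the 2 libraries (log scale) against rank among protein-coding genes; the grey line is all genes above 0 TPM, red points are the 6 genes with counts and the dashed line is a TPM of 1. Gp1ba ranks 2404 and Pf4 ranks 9074.

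The leading Gp1ba transcript differed between the libraries, at nearly the same TPM of the gene. Gp1ba-202 held 94.46% of Gp1ba TPM in replicate 1 and 3.63% in replicate 2. Gp1ba-201 held 5.54% in replicate 1 and 96.37% in replicate 2. As transcript levels, Gp1ba-202 stood at 49.64 TPM in replicate 1 and 1.91 TPM in replicate 2, and Gp1ba-201 at 2.91 TPM in replicate 1 and 50.76 TPM in replicate 2. The authors' bounds on Gp1ba-202 were 46.3 and 50.8 TPM for replicate 1, with 0.716 and 3.35 TPM for replicate 2, and these intervals do not overlap.

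Both Gp1ba transcripts encode the same protein. Gp1ba lies on chromosome 11 (70639122 to 70642036, plus strand), and the coding sequence (70639410 to 70641611) sits whole in the second of 2 exons in both models. Gp1ba-201 starts 22 bases earlier and runs 216 bases further at its 3′ end, and the first exon of Gp1ba-202 ends 8 bases later. They share 2472 bases, of 2710 in Gp1ba-201 and 2480 in Gp1ba-202. The difference between the libraries thus lies outside the coding sequence.

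The transcript assignment also sets the length by which Gp1ba counts are divided. The effective length of the gene was 2337 bases in replicate 1 and 2557 bases in replicate 2. With all Gp1ba counts divided by the effective length of Gp1ba-201, the level was 48.1 TPM in replicate 1 and 52.5 TPM in replicate 2. On that common length the libraries were further apart than in gene TPM, with a mean of 50.3 ± 3.12 TPM (SD, n = 2).

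Among 6331 detected genes with at least 2 listed transcripts, 16.5% had different leading transcripts in the libraries. For 2.95% of them the leading transcript differed and a share moved by 50 points or more. The move of 90.8 points for Gp1ba ranked 11 of the 6331, where the median largest move was 8.88 points. The labels do not say what differed between the library preparations, and the part of read coverage near the transcript ends was not tested.

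**Figure D3:**
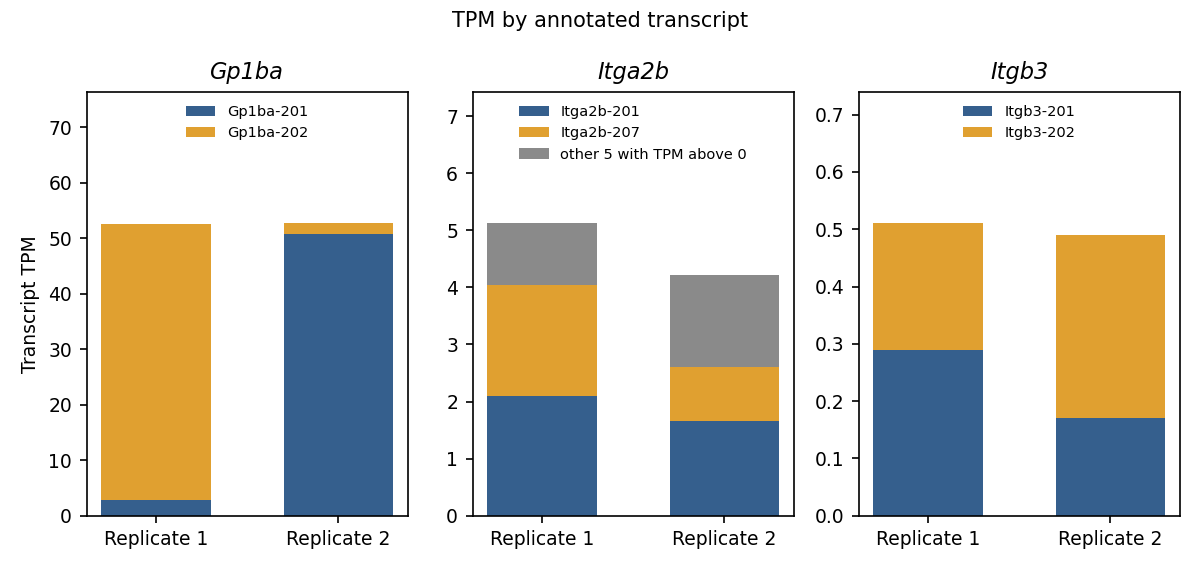
Transcript TPM (linear axes) of Gp1ba, Itga2b and Itgb3 in replicate 1 and replicate 2, stacked by annotated transcript. Gp1ba-202 makes up 94.46% of the Gp1ba bar in replicate 1 and 3.63% in replicate 2, at nearly the same bar height.

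Transcripts without a coding sequence took much of the integrin signal. Itga2b-201, its full-length coding transcript of 30 exons, held 40.8% of Itga2b TPM in replicate 1 and 39.5% in replicate 2. By expected counts, which are not divided by length, it held 77.7% in replicate 1 and 72.7% in replicate 2. The short noncoding Itga2b-207 held 38.1% of TPM in replicate 1 and 22.4% in replicate 2, while Itga2b-210 held 0% in replicate 1 and 22.5% in replicate 2. The authors' bounds overlap, however, at 1.33 and 2.65 TPM for Itga2b-207 in replicate 1 with 0.378 and 1.63 TPM in replicate 2. For Itga2b-210 the upper bound in replicate 1 was 0.447 TPM and the lower bound in replicate 2 was 0.334 TPM. Coding Itga2b alone stood at 2.09 TPM in replicate 1 and 1.66 TPM in replicate 2, still above 1.

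For Itgb3, the coding Itgb3-201 held 56.9% of TPM in replicate 1 and 34.2% in replicate 2, and the noncoding Itgb3-202 held the rest. As transcript levels these were 0.29 and 0.17 TPM for Itgb3-201 and 0.22 and 0.32 TPM for Itgb3-202, in replicates 1 and 2. The transcript with the larger share thus differed between the libraries, on 81.7 and 33.2 counts for Itgb3-201. The authors' bounds overlap, however, at 0.181 and 0.428 TPM for Itgb3-201 in replicate 1 with 0.0666 and 0.313 TPM in replicate 2. For Itgb3-202 they were 0.0374 and 0.349 TPM in replicate 1, with 0.123 and 0.472 TPM in replicate 2. Gp5, Gp9 and Pf4 each had 1 listed transcript.

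None of the genes met the call for a difference between the libraries, which was an adjusted p under 0.05 by the exact two-sided binomial test with Benjamini-Hochberg adjustment and a fold of at least 2. Of 11285 genes tested 11.3% were called, 8.58% higher and 2.72% lower in replicate 1, and of the 9 genes 6 had enough counts for the test. At any fold, 2 of those 6 had an unadjusted and an adjusted p under 0.05, beside 67.9% of all tested genes by adjusted p. These were Gp5, whose log2 ratio (replicate 1 over replicate 2) was -0.38 (95% exact interval -0.45 to -0.31, adjusted p = 2.0e-24), and Gp1ba, at -0.22 (-0.28 to -0.17, adjusted p = 2.8e-15). Both were lower in replicate 1 relative to library size. With total counts as library sizes, the log2 ratio of Gp1ba was -0.029 (adjusted p = 0.358 by the exact binomial test), that of Gp5 -0.19 (adjusted p = 1.0e-06) and that of Itga2b 0.33 (adjusted p = 0.0045). Under that scaling the median log2 ratio over all genes was 0.23 in place of 0.03, and 89.6% in place of 75.9% of calls were higher in replicate 1.

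The log2 ratio of Gp9 was -0.48 (95% exact interval -1.42 to 0.48), that of Itga2b 0.14 (-0.08 to 0.36), that of Itgb3 0.05 (-0.36 to 0.47; -0.030 with upper-quartile scaling) and that of Pf4 0.21 (-1.30 to 1.98). The intervals of Gp9 and Pf4 include changes of more than 2-fold. This test sets 1 library against the other, not conditions, with counting noise as its whole error.

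The other genes of platelet and megakaryocyte function were detected unevenly. Over all protein-coding genes 38.3% were detected, with a median of 0.03 TPM. The lists were chosen with earlier results of these data known, so differences between their shares are described and not tested. Of 27 other platelet surface receptor genes 6 were detected (22.2%), 13 had counts below the threshold and 8 had 0 counts in both libraries. The highest were the integrin gene Itgb1 at 60.7 ± 1.16 TPM, the adrenergic receptor gene Adra2a at 51.9 ± 13.0 TPM, Itgav at 32.9 ± 18.5 TPM and the tetraspanin gene Cd151 at 8.95 ± 7.16 TPM (SD, n = 2). Among those at 0 were the collagen-binding integrin gene Itga2, the laminin-binding integrin gene Itga6, the tetraspanin gene Cd9 and Fcer1g. The median of the list was 0.01 TPM.

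Of 21 other granule genes 5 were detected (23.8%) and 7 had 0 counts in both libraries. The highest were Tgfb1, a growth factor made in many cell types, at 2121 ± 346 TPM, the granule biogenesis gene Nbeal2 at 81.9 ± 2.04 TPM, Hps1 of dense granules at 29.3 ± 3.89 TPM and the trafficking gene Vps33b at 5.19 ± 0.156 TPM. The cargo genes Ppbp, F13a1, Mmrn1 and Clu were among those at 0. Several of the detected genes of this list act in granule assembly rather than being stored cargo.

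Genes for integrin activation and GPVI signalling were detected more widely, 12 of 20 (60%), with a median of 11.1 TPM. The share over all protein-coding genes was 38.3% and their median 0.03 TPM. Fermt3, which encodes the integrin activator kindlin-3, stood at 1559 ± 50.2 TPM, the G protein gene Gnai2 at 389.7 ± 25.4 TPM, the kinase gene Csk at 324 ± 62.5 TPM and the talin gene Tln1 at 163 ± 23.7 TPM. Vav3 had 0 counts. Of 15 cytoskeleton and proplatelet genes 8 were detected (53.3%), led by Zyx at 171 ± 13.1, Myh9 at 115 ± 6.93, Diaph1 at 95.3 ± 16.8 and Tuba4a at 46.4 ± 11.7 TPM. Many members of both lists also act in other blood cells.

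Of 18 transcription factor genes of megakaryocytes 15 were detected (83.3%, beside 38.3% of all protein-coding genes), with a median of 63.7 TPM. The GATA1 cofactor gene Zfpm1 stood at 2463 ± 686 TPM, Gata1 at 1061 ± 268 TPM, Gfi1b at 842 ± 191 TPM and Gata2 at 453 ± 118 TPM, and all of these also act in erythroid cells. RNA of the endogenous locus and of the introduced fusion cannot be told apart in the Gata1 count. Chosen after their values were seen, the ETS factor gene Fli1 stood at 12.7 ± 1.18 TPM and the platelet tubulin gene Tubb1 at 0.605 ± 0.120 TPM.

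Single genes of these lists were called different between the libraries by the same exact binomial test. Of the receptor genes 2 of the 8 tested were called, Cd151 higher in replicate 1 and Itgav lower in replicate 1. Of the granule genes 1 of 8 was called, of the signalling genes 1 of 15, of the cytoskeleton genes 0 of 11 and of the transcription factor genes 1 of 17, beside 11.3% over all genes tested. Those single genes, named after their values were seen, were the granule proteoglycan gene Srgn, the kinase gene Btk and the factor gene Mef2c, all higher in replicate 1. In the cytoskeleton list, 0 calls stands beside 7 genes with an unadjusted and 7 with an adjusted p under 0.05 at any fold.

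**Figure D4:**
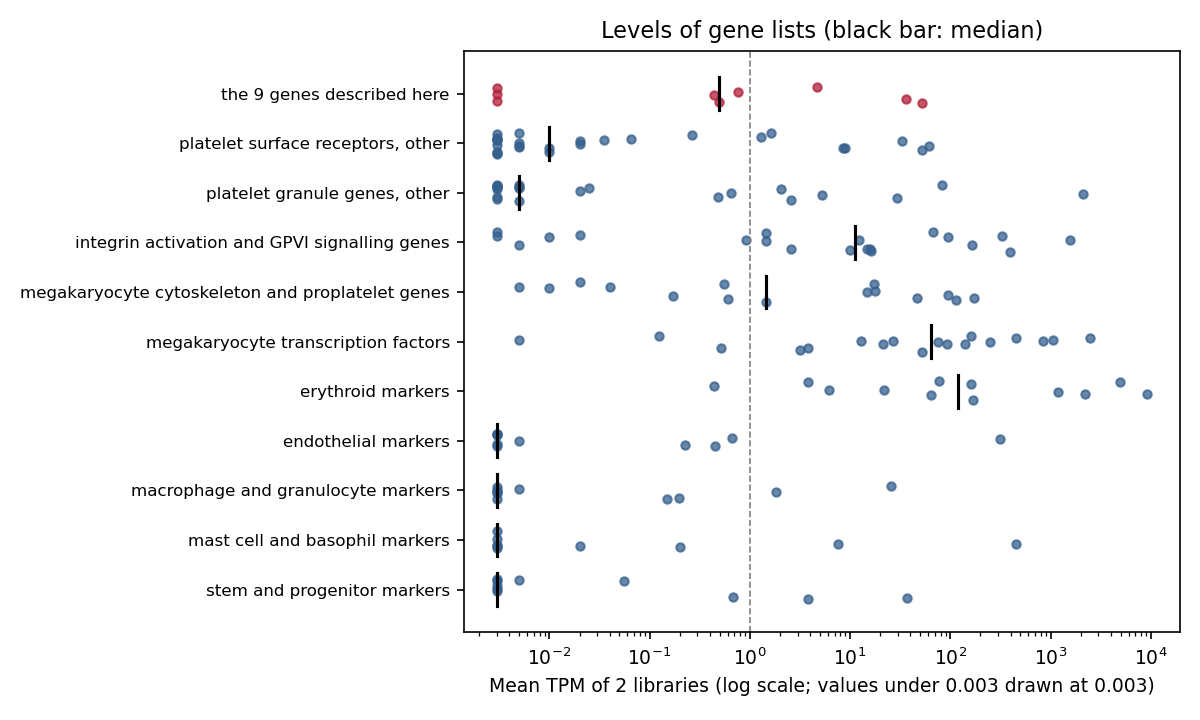
Mean TPM of the 2 libraries (log scale) for the 9 genes and for each gene list; points are genes, black bars are medians and the dashed line is a TPM of 1. The transcription factor and erythroid lists have medians of 63.7 and 119 TPM, while the other platelet receptor list has a median of 0.01 TPM.

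Other blood cell markers were mostly undetected, where 38.3% of all protein-coding genes were detected. Of 10 macrophage and granulocyte markers 2 were detected, led by Spi1 at 25.5 ± 0.226 and Cd68 at 1.82 ± 0.120 TPM. Of 9 mast cell and basophil markers 2 were detected, led by Gata2 and by Hdc at 7.63 ± 1.25 TPM, and of 10 stem and progenitor markers 2 were detected, led by Kit at 37.0 ± 6.17 and Meis1 at 3.83 ± 0.417 TPM. In each of these lists 5 genes had 0 counts in both libraries. The summed TPM in replicates 1 and 2 was 27.1 and 28.2 for the macrophage and granulocyte list, 378 and 543 for the mast cell and basophil list and 45.8 and 37.3 for the stem and progenitor list. Gata2, which also acts in erythroid cells, made up 369.6 and 536.25 TPM of the mast cell and basophil sums. Whether a minority of cells of another type carried the Gp1ba, Gp5 or Itga2b signal was not tested.

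The promoter windows of 7 of the genes were in the RefSeq table. The windows of Gp1ba and Gp5, printed above, each held 3 GATA motifs and 1 ETS motif. In Gp1ba the GATA matches begin 104, 51 and 23 bases before the start and the ETS match 16 bases before it. That start is the first base of Gp1ba-201, and Gp1ba-202, which led in replicate 1, starts 22 bases later. In Gp5 the GATA matches begin 115, 93 and 77 bases before the start and the ETS match 48 bases before it. Of all 32851 windows 1.76% held at least 3 GATA matches and 0.603% held at least 3 GATA matches with an ETS match. The cut of 3 was not planned and equals the number seen in Gp1ba and Gp5, so these shares do not test rarity.

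No other window of these genes held more than 1 GATA match. Gp1bb had 1 GATA and 2 ETS matches, Pf4 1 and 1, Gp6 1 and 0, Itga2b 0 and 2 and Gp9 0 and 1. A GATA match was found in 29.8% of all windows, an ETS match in 46.5% and both in 12.6%. RUNX motifs (spelled TGTGGT or else TGCGGT, either strand), found in 22.4% of all windows, occurred only in the window of Gp9 among the 7, with 2 matches. The GATA, ETS and RUNX matches did not overlap in the windows shown. A match is a description of the letters and no evidence of binding.

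**Figure D5:**
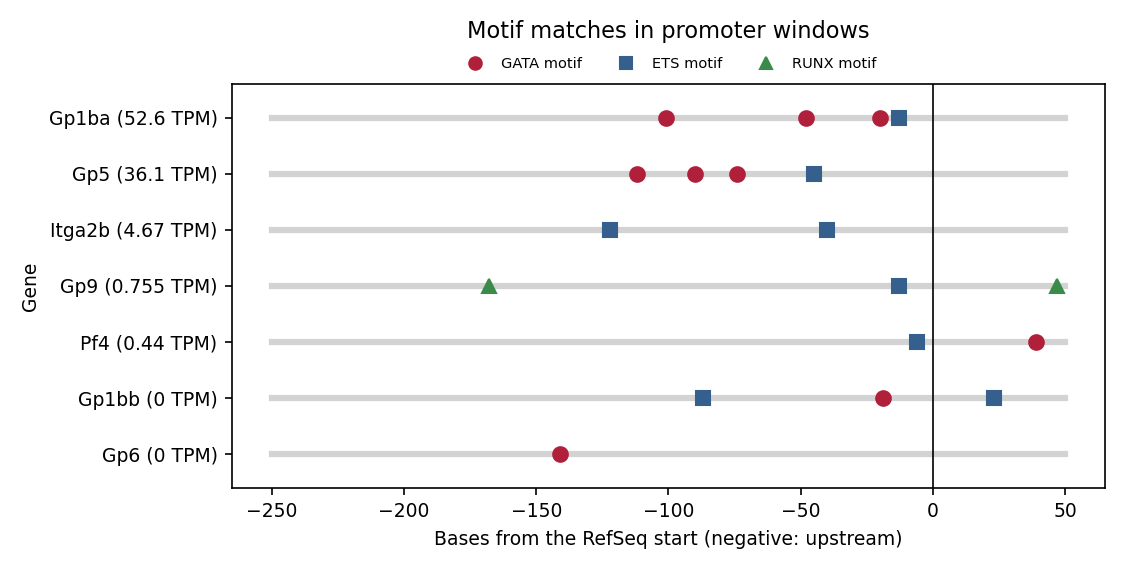
Positions of GATA, ETS and RUNX motif matches in 7 promoter windows, in bases from the RefSeq start; markers are the centres of matches on either strand, and genes are ordered by mean TPM. Gp1ba and Gp5, at 52.6 and 36.1 TPM, have 3 GATA matches each. Itga2b and Gp9 have 0, and Gp1bb, Gp6 and Pf4 have 1 each. A link between matches and levels was not tested.

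The genes with single-exon coding sequences were Gp1ba, Gp5 and Gp9, and Gp1bb in its Gp1bb-201 model, all of the GPIb-IX-V complex. The integrin, Gp6, Pf4 and Vwf coding transcripts are split over more exons, from 3 in Pf4-201 to 51 coding exons in Vwf-203. Among neighbours, Slc25a11, 2160 bases downstream of Gp1ba on the opposite strand, stood at 145 TPM in replicate 1 and 129 TPM in replicate 2. Atp13a3, 1644 bases upstream of Gp5 on the same strand, stood at 218 TPM in replicate 1 and 419 TPM in replicate 2. Neither overlaps the gene beside it in the annotation, and reads running past annotated ends were not examined here.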

How the data were processed

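PolyA RNA of G1E-ER4 cells was profiled in 2 libraries of 1 group. Per the deposited notes, the values derive from alignments to the transcriptome on mm10 with GENCODE M4; for the aligner and quantifier, names are not given in the sources used here. Expected counts per gene and transcript, as the authors deposited them, are estimates that need not be whole and are not normalized. The authors also deposited TPM, corrected for effective length and library size, with a posterior mean and an interval whose level is not stated. The authors' percent values give each transcript's share of its gene. Rows that name no gene held 2 and 0 counts and were left out of tests.

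Names and positions came from GENCODE M21 on GRCm38, the assembly of mm10, and promoter windows from RefSeq (GRCm38.p6). Counts were rounded and compared by an exact binomial test (scipy 1.17.1) against library sizes scaled by TMM in edgeR 4.0.16, for genes with at least 10 counts over both libraries. Log2 ratios carry a prior count of 0.5. The test was checked on counts simulated with counting noise alone, the error that it assumes. That check does not cover spread beyond counting noise. Changes were planted only in well counted genes and above the 2-fold cut. It therefore does not cover the finding of changes in genes with few counts, such as Gp9 and Pf4, or of changes at that cut. Errors are SDs (n = 2). Named genes were the 9 genes, the 4 highest and up to 4 uncounted genes of each function list, the 2 highest of each cell type list, 3 genes of like level, and neighbours. The members and lists were chosen with earlier results of these data known. The alternatives were other scalings (DESeq2 1.42.0 size factors, total counts, upper quartile), filters, thresholds, estimates and the omission of each library. Counting coding transcripts alone, the counts of changed leading transcripts and the cut of 3 GATA matches were added after seeing the data.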

Additional observations from a re-analysis of the deposited data

How the results depend on the processing

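Of the 9 genes, 3 were detected with posterior mean TPM, with TPM rescaled over nuclear protein-coding genes, with coding transcripts alone and without either library; 4 were at a TPM of at least 0.5, 2 at a TPM of at least 5 and 5 by a rule of at least 10 expected counts in both libraries. At a TPM of at least 0.5, 2 endothelial markers were detected; at a TPM of at least 5, 1 macrophage and granulocyte marker and 1 stem and progenitor marker were. With posterior means the levels were 51.7 TPM for Gp1ba, 0.06 for Gp1bb, 0.025 for Gp6, 5.37 for Itga2b and 0.33 for Vwf, the ratio of Gp1ba to Gp1bb was 886 and that of Itga2b to Itgb3 10.9. Rescaled over nuclear protein-coding genes, Gp1ba stood at 56.4 TPM and Itgb3 at 0.531 TPM. By expected counts, which ignore length, Gp1ba over Gp1bb was at least 1831, Gp1ba over Gp9 260.5, Gp1ba over Gp5 1.75 and Itga2b over Itgb3 3.39. Itga2b-201 held 75.2% of counts and 33.7% of posterior mean TPM. With a fold of at least 1.5, 3122 genes were called different between the libraries against 1275 at 2-fold, and 0 of the 9 genes under either or under any other scaling, filter or estimate. Total counts as library sizes gave Itga2b a log2 ratio of 0.33 in place of 0.14. Upper-quartile scaling turned the log2 ratio of Itgb3 to -0.030. With posterior mean shares, 115 genes in place of 187 changed their leading transcript by 50 points or more. Without either library, the levels ran from 52.56 to 52.67 TPM for Gp1ba, 32.56 to 39.57 for Gp5, 4.21 to 5.12 for Itga2b, 0.66 to 0.85 for Gp9, 0.49 to 0.5 for Itgb3 and 0.38 to 0.5 for Pf4, while the share of Gp1ba-201 ran from 5.54% to 96.37%. The cause of these moves was not tested. The rule on coding transcripts and the alternatives for leading transcripts were chosen after seeing the data. No paired analysis was possible because all libraries belong to 1 group. The limit for genes at 0 depends on the transcript length taken. Depth limits Gp9 and Pf4, with 6 to 22 counts a library, and the genes at 0.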
